A study of Mus musculus with 14 samples.

Results

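Cohesin is the ring-shaped protein complex that holds sister chromatids together, and the transcripts of its subunits and of the Pds5 proteins that bind the ring were measured in single mouse oocytes with and without maternal Kdm1a, the gene of a histone lysine demethylase. The members are the 10 genes Smc1a, Smc1b, Smc3, Rad21, Rec8, Stag1, Stag2, Stag3, Pds5a and Pds5b, chosen by name out of 24064 genes in the count table. The shugoshins and other proteins that protect cohesin in meiosis are not among these 10 genes and were followed as separate lists.

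RNA was sequenced from 5 control and 5 mutant oocytes, in 14 libraries. The control oocytes are 4 that were wild type for Kdm1a (genotype wt/wt, strain C57BL/6J), named wt1, wt3, wt4 and wt5 here, and 1 that carried the floxed allele without Cre (f/f, strain mixed B6;129), named C3. The mutants (mko/mko, strain mixed B6;129), named D1, D2, D3, D4 and D7, came from females with the floxed allele and a Cre transgene under the Zp3 promoter, which is active in growing oocytes, so that the first exon of Kdm1a was removed in the oocyte and not in the rest of the female. The names C3, D3, D4 and D7 each stand for 2 libraries, which were summed. The labels number these libraries as separate oocytes, and the number of oocytes given here rests on the shared names. The labels give neither the number nor the age of the females, and the study's methods give an age only for the females of its embryos. The p-values measure the spread between oocytes, which may come from few females. Strain and genotype change together between wt/wt and mutant oocytes, and only C3 shares the mutants' strain without the deletion. A difference of genotype and a difference of strain can therefore not be told apart beyond what that single oocyte shows, and its value or its place is given with the genes that were called. Each value is relative to the other transcripts of its oocyte, and the total amount of RNA in an oocyte was not measured.

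In the cohesin ring 2 SMC proteins, SMC3 and SMC1A, are closed by the kleisin RAD21, and a STAG protein (STAG1 or STAG2) sits on the kleisin. Germ cells replace part of the ring in meiosis by SMC1B, REC8 and STAG3. In the female this cohesin is put on the chromosomes before birth and has to last until ovulation, when separase cuts REC8 along the arms, while a shugoshin with the phosphatase PP2A spares the centromeres until fertilization. PDS5A and PDS5B bind the ring and take part both in its release by WAPL and in its stabilization by acetylation and sororin.

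Depth and identity of the oocytes bear on every value below. Control oocytes had 1375187 to 6928548 counts and mutant oocytes 2016701 to 6926076, with C3 and D4 about as deep as each other and deeper than the rest. D4 also had a count in 13249 genes, against 10322 to 11044 in the other mutant oocytes. Kdm1a itself was at 12.1 to 38.7 CPM in wt/wt oocytes, 148 CPM in C3 and 0 to 4.97 CPM in mutant oocytes, where CPM is the counts-per-million value over a library size adjusted by the trimmed mean of M values (TMM). Its log2 fold change was -5.03 (adjusted p = 0.0011), -4.05 without C3 and -5.97 without D7. The counts are over the whole gene and not over the deleted first exon, so this level does not check the deletion itself. The TMM factor was 0.652 in C3, 1.3 to 1.36 in wt/wt oocytes and 0.779 to 0.952 in mutant oocytes. Places of C3 below are on the TMM scale, and without TMM adjustment they differ for several genes. Each of 12 oocyte markers had counts in at least 1 oocyte, with a summed level of 12000 to 29500 CPM in wt/wt oocytes, 47900 CPM in C3 and 50800 to 105000 CPM in mutant oocytes. Without Gdf9, the marker with the highest mean level, it was 4890 to 14000, 9660 and 14200 to 33600 CPM. Not every marker followed the sum, as Dazl was at 708 CPM on average in control and 356 CPM in mutant oocytes. Of 16 markers of cumulus and granulosa cells 9, Foxl2, Fshr, Inha, Inhba, Wt1, Tnfaip6, Ptx3, Pgr and Lhcgr, were at 0 in every oocyte, and the summed level of the 16 was 18.8 to 67.4, 64.5 and 83.9 to 150 CPM in the same order. Leaving out Cyp19a1 turned this order round, to 10.3 to 15.5, 1.77 and 1.52 to 7.96 CPM. The part of these differences in the results on cohesin was not tested.

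Stretches of reference sequence around the transcription start are shown for 2 members that fell in mutant oocytes and for which an entry was found, Stag1 and Pds5b, and for 2 members specific to meiosis, Smc1b and Stag3. Each is 300 bases long, ends shortly after the start in RefSeq (GRCm38.p6, the assembly that mm10 names) and is written in the direction of the gene. Capitals mark the E2F-type motif TTCCCGC and, in Stag3, the E-box CACGTG, both searched on both strands (the first also as GCGGGAA).
Stag1 promoter, chr9:100643198-100643497, plus strand: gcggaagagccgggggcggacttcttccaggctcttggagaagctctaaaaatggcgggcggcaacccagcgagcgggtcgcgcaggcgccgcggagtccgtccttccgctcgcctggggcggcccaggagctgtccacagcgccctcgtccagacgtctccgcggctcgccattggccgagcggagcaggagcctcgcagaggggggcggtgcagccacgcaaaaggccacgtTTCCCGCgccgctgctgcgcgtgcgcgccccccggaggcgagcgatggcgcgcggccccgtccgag
Pds5b promoter, chr5:150673577-150673876, plus strand: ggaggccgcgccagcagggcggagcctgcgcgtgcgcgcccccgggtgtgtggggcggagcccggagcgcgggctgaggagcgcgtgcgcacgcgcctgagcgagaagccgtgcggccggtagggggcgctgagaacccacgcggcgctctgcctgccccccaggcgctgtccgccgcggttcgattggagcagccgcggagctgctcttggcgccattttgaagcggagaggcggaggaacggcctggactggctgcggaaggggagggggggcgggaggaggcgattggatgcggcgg
Smc1b promoter, chr15:85131908-85132207, minus strand: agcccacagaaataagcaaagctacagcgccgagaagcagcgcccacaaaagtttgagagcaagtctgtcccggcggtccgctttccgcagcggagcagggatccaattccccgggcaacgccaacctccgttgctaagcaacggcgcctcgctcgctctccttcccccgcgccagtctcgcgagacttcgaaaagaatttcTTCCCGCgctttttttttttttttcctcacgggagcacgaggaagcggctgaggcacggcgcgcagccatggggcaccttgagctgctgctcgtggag
Stag3 promoter, chr5:138280259-138280558, plus strand: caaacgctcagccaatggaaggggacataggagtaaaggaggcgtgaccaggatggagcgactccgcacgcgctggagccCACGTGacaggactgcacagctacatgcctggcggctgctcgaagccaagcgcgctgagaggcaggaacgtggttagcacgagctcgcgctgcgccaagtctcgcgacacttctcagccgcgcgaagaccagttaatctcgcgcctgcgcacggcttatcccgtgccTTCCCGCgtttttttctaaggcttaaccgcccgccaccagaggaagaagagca

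Of the 10 members 8 had an entry among the RefSeq promoters, all but Rad21 and Stag2. The E2F-type motif occurred 1 time each in Smc1a, Smc1b, Stag1, Stag3 and Pds5a and was not found in these windows of Smc3, Rec8 and Pds5b. Of all 32851 promoters listed there, 4.6% held it. The E-box occurred in Stag3 and in none of the other 7, against 7.2% of all promoters. CG pairs numbered 43 in the window of Stag1, 41 in Pds5b, 29 in Smc1b and 30 in Stag3, against a median of 7 over all promoters. Both the members that fell and the members that were nearly absent thus had more CG pairs than the median window, and the E2F-type motif was found on either side of the division. A match of letters is a description and not a binding site.

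Kleisins come first, because the 2 genes of this role lay at opposite ends of the range of levels. Rad21 was the most abundant member per length and fell in mutant oocytes, while Rec8 had no count in any oocyte. Rad21 (chromosome 15, 51962240 to 51991747, minus strand, GRCm38, 14 exons) was at 601, 409, 286, 406 and 513 CPM in wt1, wt3, wt4, wt5 and C3. Among the mutants it was at 155, 163, 275, 202 and 176 CPM in D1, D2, D3, D4 and D7. Each mutant oocyte lay below each control oocyte, with D3 and wt4 the closest of the 2 groups. The means were 443 ± 119 and 194 ± 48.6 CPM (SD, n = 5 each), and the log2 fold change, mutant minus control here and below, was -1.19 with a standard error of 0.33 (adjusted p = 0.0148 by the quasi-likelihood test of edgeR, adjusted over 9198 genes). C3 lay within the wt/wt range on this scale. Without TMM adjustment its 2 libraries were at 294 and 376 CPM, against 371 to 792 CPM in wt/wt oocytes. Their sum lay below that range.

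Rec8 (chromosome 14, 55618037 to 55625395, plus strand) is the kleisin that separase cuts in meiosis. It received 0 of the 30243712 counts of the 10 oocytes, which allows a level of up to 0.0992 CPM over all of them (without TMM adjustment), and of 0.455 to 1.82 CPM in a single oocyte at 3 counts. These limits cover counting error only, and a count of 0 says that no read was assigned to the gene as annotated. Its neighbour Ipo4 ends 4 bases away on the other strand and had 0 to 6 counts an oocyte. None of the 49-base windows in the 2184 bases of the Rec8 transcript occurred in another annotated transcript, and copies outside annotated transcripts were not searched for.

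Among the SMC subunits the common partner Smc3 did not pass the test, and the somatic Smc1a rose in mutant oocytes from a low level. The meiotic Smc1b had more than 4 counts in a single oocyte, the mutant D4. Smc3 (chromosome 19, 53600398 to 53645833, plus strand) was at 261, 166, 174, 114 and 285 CPM in the control oocytes, in the same order as above. In mutant oocytes it was at 119, 93.0, 219, 207 and 98.5 CPM. The groups overlapped over most of their range, with D3 and D4 above 3 of the 4 wt/wt oocytes. Its log2 fold change was -0.44 with a standard error of 0.37 (adjusted p = 0.402), and the difference could not be told from 0 with this spread.

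Smc1a (chromosome X, 152016428 to 152062694, plus strand) was at 3.31, 8.61, 4.49 and 3.58 CPM in the wt/wt oocytes and at 12.6 CPM in C3. The mutant oocytes were close to each other, at 19.1, 20.7, 17.4, 21.1 and 19.4 CPM. Each of them lay above each control oocyte, and C3 lay between wt/wt and mutant oocytes. Without TMM adjustment the 2 libraries of C3 were at 9.66 and 6.74 CPM, inside the 4.36 to 11.5 CPM of the wt/wt oocytes. Mean levels were 6.52 ± 4.02 CPM for controls and 19.5 ± 1.44 CPM for mutants (SD, n = 5 each), and Smc1a rose by 1.55 on the log2 scale (standard error 0.47, adjusted p = 0.0251). This call did not hold with scaling by library totals (1.28, adjusted p = 0.0661), without wt1 (1.39, 0.0592) or without wt4 (1.45, 0.0582), in a range of 0.00446 to 0.111 over 19 alternatives.

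Smc1b (chromosome 15, 85064689 to 85131964, minus strand), the meiotic SMC1, had 0 counts in each wt/wt oocyte and 1 count in C3. Counts in the mutants, in the order used above, were 3, 1, 4, 100 and 3. D4 alone held 90.1% of the 111 mutant counts, and its 2 libraries contributed 48 and 52 of them. In CPM, D4 was at 15.2 and the other mutant oocytes were at 0.608 to 1.64. Smc1b was called higher (adjusted p = 0.00645), and a fitted fold change over the groups is not taken as a fold because the controls hold 1 count. The gene entered the test through the counts of D4, and without D4 it did not pass the filter on low counts. Its pattern over the 10 oocytes was most like those of Srp54b and Stim2, with root mean square differences of 0.41 and 0.42 in mean-centred log2 CPM. Like Smc1b these 2 genes were highest in D4, where they had 2393 and 219 counts against at most 266 and 13 in any other oocyte.

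Of the STAG subunits, Stag1 and Stag2, the STAG genes of somatic cohesin, both fell in mutant oocytes, and the meiotic Stag3 was close to absent in all. Stag1 (chromosome 9, 100597798 to 100959375, plus strand, 34 exons) was at 40.3, 56.8, 47.7, 34.5 and 49.6 CPM in the control oocytes. It was at 8.75, 11.5, 7.82, 6.07 and 15.4 CPM in the mutants. No mutant oocyte reached the level of the lowest control oocyte. The means of 45.8 ± 8.64 and 9.92 ± 3.66 CPM (SD, n = 5 each) stood 4.62-fold apart, and the log2 fold change was -2.22 with a standard error of 0.39 (adjusted p = 0.00128). The 2 libraries of C3 did not give the same level of Stag1. With totals of 3518290 and 3410258 they had 179 and 45 counts, or 50.9 and 13.2 CPM without TMM adjustment, and the second lies within the 4.75 to 19.3 CPM of the mutant libraries on the same scale. On that scale the wt/wt oocytes were at 47 to 75.9 CPM, and the sum of the 2 C3 libraries lay below each of them. Used alone as control, the wt/wt oocytes gave a log2 fold change of -2.17.

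Stag2 (chromosome X, 42149317 to 42277185, plus strand, 34 exons) was at 99.4, 100, 54.7 and 51.5 CPM in the wt/wt oocytes and at 22.6 CPM in C3. The mutant oocytes were at 13.7, 10.3, 23.1, 9.41 and 26.9 CPM. Every wt/wt oocyte lay above every mutant oocyte, but C3 lay among the mutants, below D3 and D7. Stag2 fell by 1.98 on the log2 scale (standard error 0.47, adjusted p = 0.00684), from a mean of 65.7 ± 33.6 CPM to 16.7 ± 7.86 CPM (SD, n = 5 each). Both libraries of C3 were low for Stag2, with 56 and 46 counts. The change of Stag2 thus separated the wt/wt oocytes from the mutants, with the f/f oocyte inside the mutant range.

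Stag3 (chromosome 5, 138280240 to 138312393, plus strand), the meiotic STAG, had 0, 1, 0, 0 and 1 counts in the control oocytes and 1, 0, 0, 5 and 1 in the mutants. With 9 counts in all it was not tested. No oocyte other than D4 had more than 1 count, where 3 counts stand for 0.455 to 1.82 CPM.

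Of the Pds5 genes Pds5b was measured and fell, and Pds5a had next to no counts. Pds5b (chromosome 5, 150673739 to 150810690, plus strand, 35 exons) was at 29.3, 43.5, 32.2, 15.2 and 12.8 CPM in the control oocytes. In D1, D2, D3, D4 and D7 it was at 8.75, 9.12, 5.69, 5.16 and 3.48 CPM. The groups did not overlap, and C3 was below each wt/wt oocyte and nearest to the mutants. The 2 libraries of C3 had 40 and 18 Pds5b counts, or 11.4 and 5.28 CPM without TMM adjustment, and the second lies within the 3.04 to 8.61 CPM of the mutant libraries on that scale, so the place of C3 rests on their sum. The means were 26.6 ± 12.7 and 6.44 ± 2.42 CPM (SD, n = 5 each), with a log2 fold change of -2.05 and a standard error of 0.48 (adjusted p = 0.00663). Pds5a (chromosome 5, 65605721 to 65698273, minus strand) had 1, 0, 0, 0 and 1 counts in control and 0, 0, 2, 0 and 0 in mutant oocytes and was not tested. In the last 3000 bases of its transcript 7.99% of the 49-base windows also lie in the antisense genes Gm42727 and Gm42729. For Smc3, 2.64% of the windows also occurred in AC154766.2, Gm11204 or Gm29763, none of which overlaps its exons. The share of windows found in another gene was 0 for the other 8 members.

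**Figure D1:**
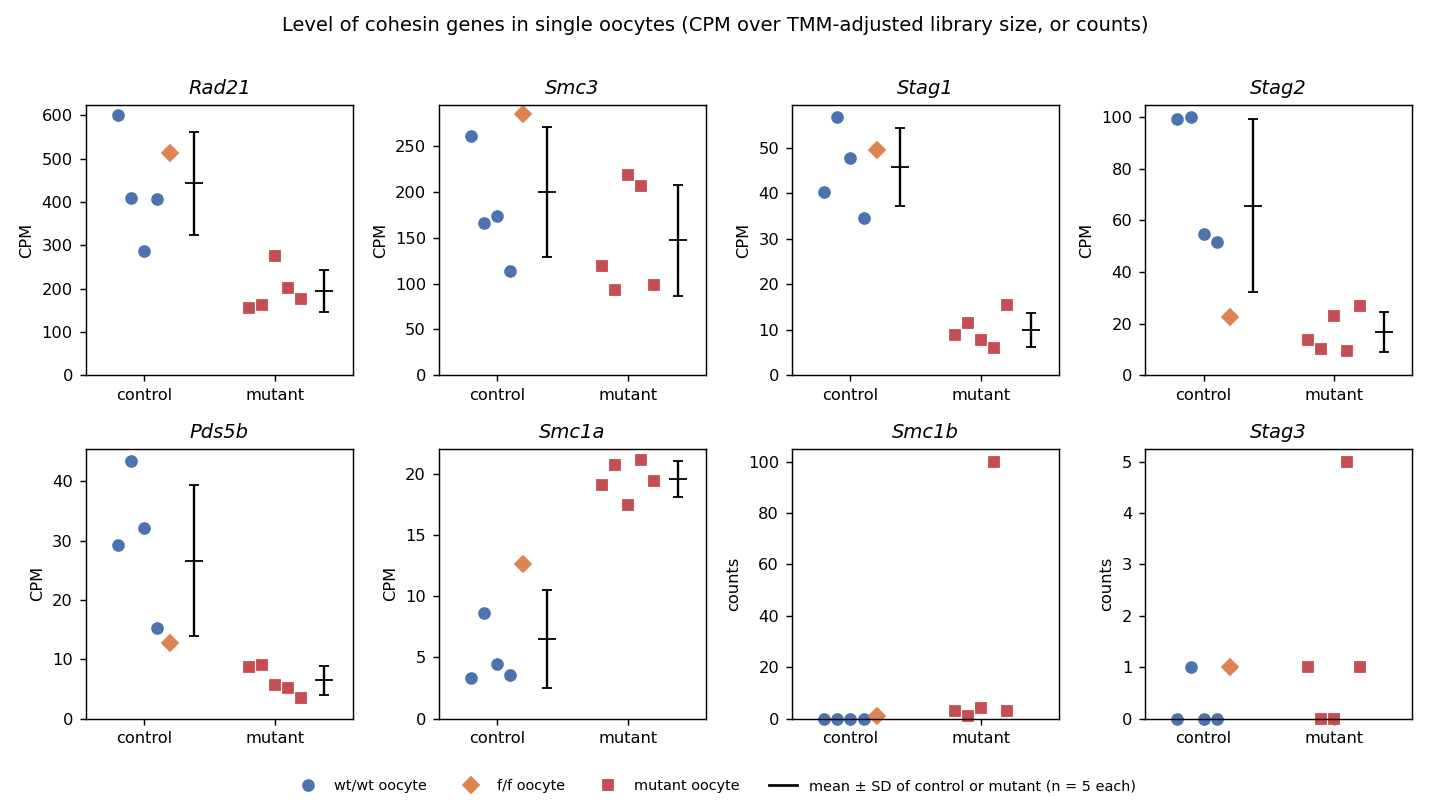
Each panel shows 1 gene and each point 1 oocyte: control oocytes (wt/wt circles, f/f diamond) on the left and mutant oocytes (squares) on the right. The vertical axis is CPM from 0, or counts for Smc1b and Stag3, and the black bars are the mean ± SD of 5 oocytes; the mutant points of Stag1 (6.07 to 15.4 CPM) lie below all control points, the f/f point of Stag2 (22.6 CPM) lies among the mutants, and Smc1b stands out in D4 with 100 counts.

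Counted together, 7 of the 10 members passed the filter on low counts. Of these 7, 6 were called at an adjusted p under 0.05 and a log2 fold change of at least 1 in size. Over all genes tested 25.9% were called, 14.7% higher and 11.2% lower. The members were chosen with earlier results of these data known, so their share is a description. The members called lower were 4 (Rad21, Stag1, Stag2, Pds5b) and those called higher 2 (Smc1a, Smc1b). Controls and mutants did not overlap in 5 of the 7, with mutants lower in 3 and higher in 2, against 16.2% of all genes tested, 8.09% lower and 8.1% higher. For Smc1b this rests on 1 count each in C3 and D2, under the floor of 3 counts. Since the filter keeps a gene such as Smc1b only through the group where it is high, these counts describe the genes that passed and not all members. The median log2 fold change was -1.19 over the 7 tested members and 0.16 over all genes tested. Against wt/wt oocytes alone, that is without C3, the same 6 members were called, where 31.5% of 9166 genes were called and 12.7% were lower. Without D4 Smc1a was the only member higher. A fit of all libraries with a block for the replicate number called 0 members higher and 1 lower, with 10.5% of all genes called. The split of all calls depends on the scaling, with 1353 genes higher and 1032 lower under TMM and 965 higher and 1667 lower under library totals, which lowers the median of all genes to -0.225. The direction of each tested member was the same under both.

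With TMM, C3 was below every wt/wt oocyte in 2 of the 7 tested members, Stag2 and Pds5b. Without TMM adjustment it was below them also in Rad21 and Stag1. Over all genes tested C3 was below every wt/wt oocyte in 23.4% with TMM, and over genes called lower in 48.8%. These shares were not computed without TMM adjustment.

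**Figure D2:**
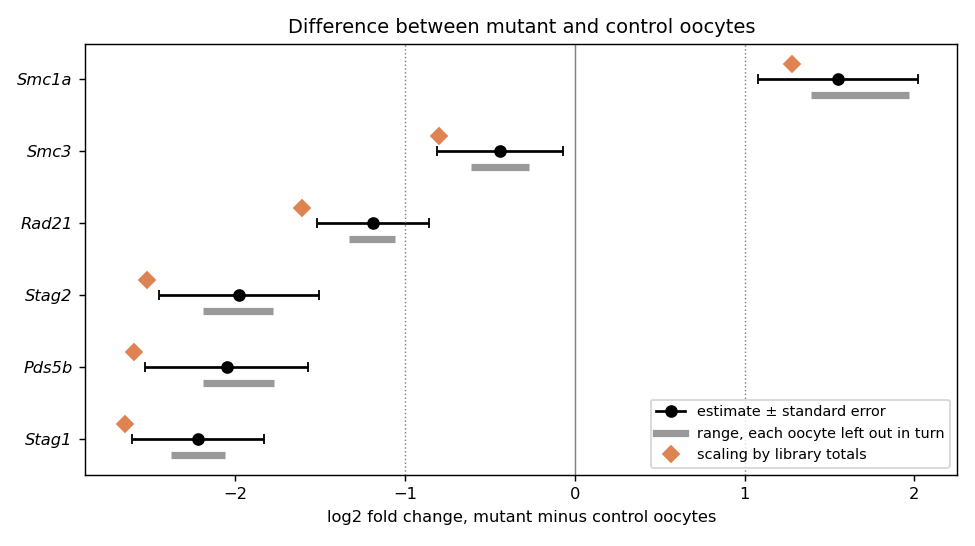
The horizontal axis is the log2 fold change (mutant minus control) for 6 tested members, with dotted lines at a size of 1. Black points and bars are estimates ± standard error, grey bars the range when each oocyte is left out in turn, and orange diamonds the estimate with scaling by library totals; the estimates of Stag1, Stag2, Pds5b and Rad21 lie beyond -1, with the error bar of Rad21 (-1.19, standard error 0.33) crossing that line, and Smc3 lies between 0 and -1.

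Order of the members was compared on CPM per kb of transcript, since counts rise with length. In control oocytes Rad21 stood at 112 ± 30.2 CPM per kb, Smc3 at 41.2 ± 14.7, Stag2 at 10.6 ± 5.44, Stag1 at 7.4 ± 1.4, Pds5b at 3.59 ± 1.71 and Smc1a at 1.39 ± 0.857 (SD, n = 5). Rad21 did not overlap with Smc3, nor Smc3 with Stag2, whereas Stag2 overlapped with Stag1, Stag1 with Pds5b and Pds5b with Smc1a. In mutant oocytes Rad21 was at 49.1 ± 12.3 CPM per kb and Smc3 at 30.3 ± 12.6, and their ranges overlapped. Smc1a came next with 4.17 ± 0.308, ahead of Stag2 at 2.7 ± 1.27, Stag1 at 1.6 ± 0.591, Smc1b at 1 ± 1.54 and Pds5b at 0.868 ± 0.326. The place of Smc1a thus moved from the sixth in control to the third in mutant oocytes, with a range of 3.71 to 4.5 that met the highest Stag2 value of 4.35, and the genes after it also overlapped with their neighbours. Capping the length at 3 kb, the reach of the cDNA from the 3′ end, left the first 5 places in either group as they were. It put Pds5b ahead of Smc1b in the mutants. Without the cap, the place of Smc1b ahead of Pds5b rests on D4, at 3.75 CPM per kb, with the lowest mutant oocyte at 0.15.

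A ratio of 2 genes within an oocyte does not depend on the scaling between oocytes. Of 5 ratios of paralogues that were planned, 4 had a term at or under 3 counts and are not given. The log2 ratio of Stag1 to Stag2 was -0.35 ± 0.92 for controls and -0.68 ± 0.60 for mutants (SD, n = 5 each). The difference of -0.33 was not larger than the spread (p = 0.556, two-sided exact permutation test, smallest possible p 0.00794), and it was 0.04 without C3. The 2 libraries of C3 differed in this ratio, with 179 Stag1 and 56 Stag2 counts in the first and 45 and 46 in the second. A further 3 ratios, chosen after the levels were seen and given with no test, are taken per kb. Smc3 over Smc1a was 18.7 to 76.1 in wt/wt oocytes, 21.9 in C3 and 4.35 to 12.1 in mutant oocytes, with no overlap. Rad21 over Smc3 was 2.02 to 4.38, 2.2 and 1.2 to 2.19, and Rad21 over the sum of Stag1 and Stag2 was 4.07 to 7.38, 11.1 and 6.5 to 20.4. In both of these the groups overlapped.

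**Figure D3:**
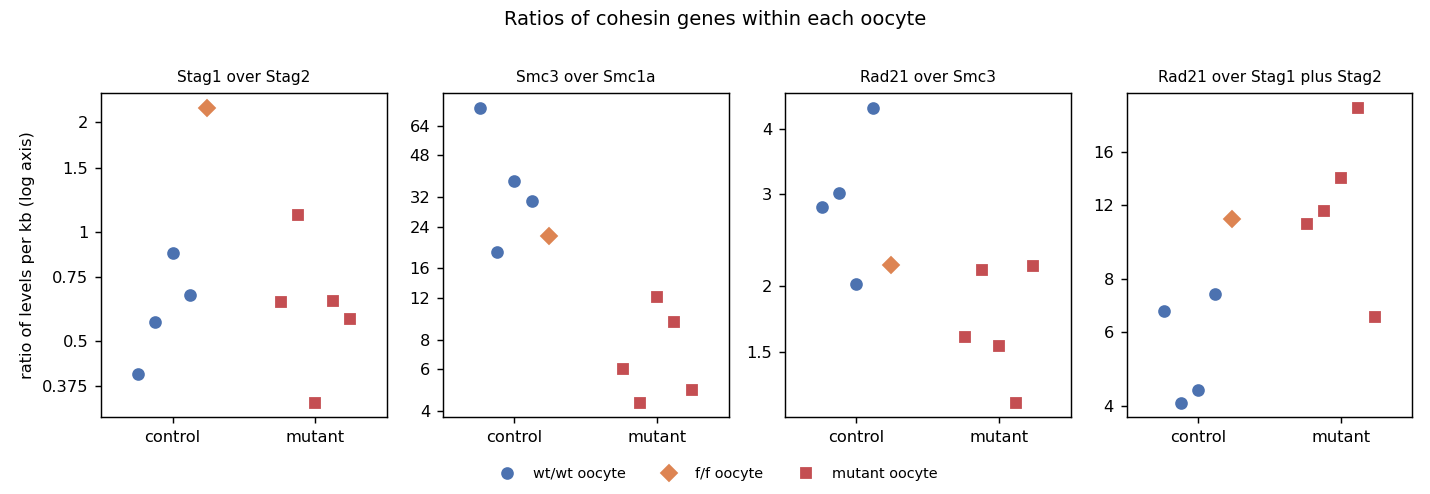
Each panel shows the ratio of 2 levels per kb within each oocyte on a log axis, with control oocytes (wt/wt circles, f/f diamond) on the left and mutant oocytes (squares) on the right. Smc3 over Smc1a separates the groups (18.7 to 76.1 against 4.35 to 12.1), and the Stag1 to Stag2 ratio of C3 (2.19, the sum of libraries with 179 to 56 and 45 to 46 counts) lies above all other oocytes.

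Genes that load, lock and release the ring were measured next, 8 in all with the kleisin Rad21l, of which 7 were tested and 3 were called, all lower (42.9%, against 25.9% of all genes called and 11.2% called lower). Their median log2 fold change was -0.59. Esco1, an acetyltransferase that modifies SMC3, fell from 522 ± 188 to 109 ± 45.4 CPM (log2 fold change -2.25, standard error 0.39, adjusted p = 0.00126). C3, at 244 CPM, was below each wt/wt oocyte and above each mutant oocyte. Cdca5, the gene of sororin, which guards acetylated cohesin from release, fell from 124 ± 49.1 to 29.7 ± 12.2 CPM (-2.07, standard error 0.42, adjusted p = 0.00281), with C3 above every wt/wt oocyte at 177 CPM. Wapal, the gene of the releasing factor WAPL, fell from 664 ± 156 to 305 ± 122 CPM (-1.12, standard error 0.35, adjusted p = 0.0289), and the groups overlapped in the lowest control oocyte wt5 at 392 CPM and in D7 at 476 CPM. C3, at 760 CPM, was above each wt/wt oocyte, the highest of which was at 758 CPM. Without TMM adjustment C3 was below each of them, with 3433 of its 6928548 counts. The call of Wapal was lost without wt1, wt3, wt4, D1, D2 or D4, at adjusted p-values up to 0.0685 (0.00529 to 0.127 over 19 alternatives). Nipbl, which loads cohesin, was at 15.4 ± 7.88 and 18.0 ± 12.3 CPM, and Esco2, the other acetyltransferase, at 119 ± 67.3 and 79.3 ± 23.7 CPM. Neither passed the test (adjusted p = 0.775 and 0.298). Rad21l had no count.

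Protection and cleavage of cohesin were covered by 26 genes, of which 24 were tested. Of these, 3 were called higher and 3 lower, or 25% of those tested against the 25.9% of all genes. The number called was 10 with filterByExpr and 11 with wt/wt oocytes alone, where 30.5% and 31.5% of all genes were called. The shugoshins did not pass the test. Sgol1 (Sgo1) was at 93.1 ± 27.6 CPM in control and 52.4 ± 25.3 CPM in mutant oocytes (log2 fold change -0.83, standard error 0.38, adjusted p = 0.115), and was called lower with library totals (-1.29) and without D7 (-1.08), with adjusted p-values of 0.0365 to 0.244 over 19 alternatives. Sgol2 (Sgo2a), the shugoshin that guards REC8 in mouse oocytes, was at 21.5 to 40.9 CPM in wt/wt, 127 CPM in C3 and 18.7 to 52.7 CPM in mutant oocytes (-0.62, standard error 0.47, adjusted p = 0.345), and its difference was 0.04 without C3. Meikin, a meiotic partner of Plk1 at the kinetochore listed as 4930404A10Rik, had 1 count in D1, 8 in D4 and 0 elsewhere. Among PP2A subunits, Ppp2r1b, a scaffold, fell from 29.2 ± 7.5 to 6.95 ± 3.95 CPM (-2.09, adjusted p = 0.00663). The other scaffold, Ppp2r1a, went the other way, at 184 ± 83.4 CPM in control and 353 ± 122 CPM in mutant oocytes. It did not pass the test (0.94, adjusted p = 0.0701). Ppp2r5e, a regulatory B56 subunit, fell from 62.7 ± 14.0 to 22.4 ± 4.16 CPM (-1.48, adjusted p = 0.00596). C3 lay inside the wt/wt range for Ppp2r1b at 34.1 CPM, and for Ppp2r5e at 39.0 CPM it lay below each wt/wt oocyte and above each mutant oocyte. Within the chromosomal passenger complex, the scaffold Incenp fell from 70.2 ± 25.6 to 16.9 ± 3.03 CPM (-2.06, adjusted p = 0.00172), and the kinase Aurkb rose from 9.57 ± 5.28 to 66.4 ± 26.9 CPM (2.80, adjusted p = 0.000895). In both genes the groups did not overlap. C3 was below each wt/wt oocyte for Incenp, at 29.9 CPM, and inside their range for Aurkb, at 5.09 CPM. The related kinase Aurkc was at 729 ± 229 CPM in control and 375 ± 142 CPM in mutant oocytes. It did not pass the test (-0.96, adjusted p = 0.0678).

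Bub1, a kinase whose histone mark recruits shugoshin, rose by 3.94 on the log2 scale (standard error 0.85, adjusted p = 0.00426), or by 2.74 without D4. It was at 1.22 to 8.5 CPM in control oocytes and 4.97 to 182 CPM in mutant oocytes, with the highest in D4 and with C3 inside the wt/wt range at 1.99 CPM. Plk1 was at 28.2 ± 13.7 and 106 ± 90.9 CPM (1.90, standard error 0.59, adjusted p = 0.0278) and lost its call without wt1, D1 or D2 and with library totals (adjusted p up to 0.0926 when an oocyte was left out, 0.00439 to 0.138 over 19 alternatives). Its groups overlapped, and C3 at 36.1 CPM lay inside the wt/wt and the mutant range. Espl1, the gene of separase, and Pttg1, that of its inhibitor securin, did not pass the test, at 333 ± 205 against 752 ± 356 CPM (adjusted p = 0.0726) and 6410 ± 3520 against 13400 ± 3350 CPM (adjusted p = 0.0622). Both were called with DESeq2 and filterByExpr, and Espl1 also without D4 (1.39, adjusted p = 0.041). Without C3 both were called higher, by 1.6 (adjusted p = 0.0145, range 0.0145 to 0.189 over 19 alternatives) and 1.5 (0.00204, range 0.00204 to 0.253). C3 stood above every wt/wt oocyte and within the mutant range for both, with 639 CPM of Espl1 and 12700 CPM of Pttg1.

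Meiotic axis and synapsis genes act with meiotic cohesin in the fetal ovary. Of 14 genes 10 were tested, 3 were called higher and 1 lower (40% called, against 25.9% of all genes), with a median of 0.31. Sycp2, of the lateral element of the synaptonemal complex, fell from 138 ± 53.0 to 15.6 ± 12.6 CPM (-3.15, standard error 0.50, adjusted p = 0.000686), with C3 at 70.2 CPM below each wt/wt and above each mutant oocyte. Its partner Sycp3 rose from 19.3 ± 11.1 to 99.3 ± 65.6 CPM (2.36, standard error 0.56, adjusted p = 0.00716). The groups overlapped for Sycp3, with C3 at 31.7 CPM above each wt/wt oocyte and inside the mutant range of 29.5 to 197 CPM. Sycp1, of the transverse filament between the paired axes, rose from 4.71 ± 1.76 to 18.9 ± 13.1 CPM (2.01, standard error 0.53, adjusted p = 0.013), with C3 at 5.54 CPM inside the wt/wt range. Hormad1, an axis protein gene, had 4 counts in wt5 and 0 in the other control oocytes, against 27, 33, 34, 42 and 50 counts in D1, D2, D3, D4 and D7. It was called higher (adjusted p = 0.00121), and no fold is given against so few counts. Like Smc1b, it passed the filter on low counts through the mutant oocytes, so the count of genes called in this list is a description.

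Condensin and Smc5/6 are SMC complexes related to cohesin. Of their 15 genes all were tested, with 1 called higher, 2 lower (20% called, against 25.9% of all genes) and a median of -0.07. More were called with DESeq2, with library totals and with libraries not summed, and their share was then above that of all genes. Nsmce1 of the Smc5/6 complex fell from 24.5 ± 9.31 to 3.45 ± 1.92 CPM (-2.86, standard error 0.57, adjusted p = 0.00272), with C3 at 8.86 CPM below each wt/wt oocyte. Smc6 fell from 511 ± 145 to 239 ± 63.8 CPM (-1.10, standard error 0.33, adjusted p = 0.0236). The groups overlapped through C3 alone, which at 338 CPM lay below each wt/wt oocyte (381 to 670 CPM) and inside the mutant range (186 to 350 CPM). The call of Smc6 was lost without wt1, wt3, wt4, D1 or D2 (adjusted p up to 0.0633, and 0.00484 to 0.213 over 19 alternatives). Smc4 of condensin rose by 3.26 (standard error 0.75, adjusted p = 0.00587), or by 2.10 without D4, which held 555 CPM against 24.9 to 200 CPM in the other mutant oocytes and 11 to 26.4 CPM in control oocytes. The highest control oocyte was C3, which lay above each wt/wt oocyte and inside the mutant range.

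**Figure D4:**
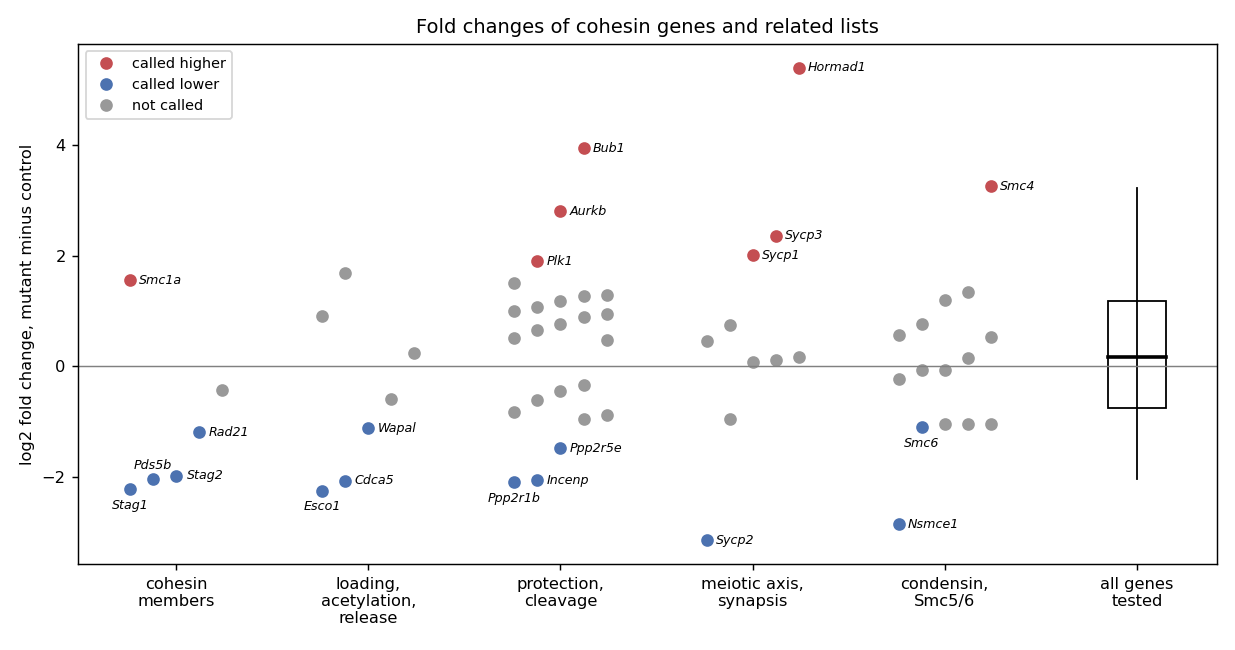
Each point is a tested gene of a list (Smc1b is left out because its fold rests on 1 control count; the value drawn for Hormad1 is the fitted one against 4 control counts), and the vertical axis is the log2 fold change, mutant minus control. Red points were called higher, blue points lower and grey points not called; the box at the right gives the quartiles of all 9198 genes with a bar at the median of 0.16 and whiskers from the 5th to the 95th percentile.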

How the data were processed

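Values are counts per RefSeq gene in single oocytes. Per the study's methods, the authors made cDNA from poly(A) RNA reaching up to 3 kb from the 3′ end, discarded low-quality reads, aligned the rest to mm10 with TopHat 2.0.6, kept unique best alignments and counted them with HTSeq. The HTSeq version differs between the methods and the submitters' processing notes (0.5.3p9). The deposited counts are not normalized, and strand in counting is not given in the sources used here. Counting cannot see reads shared with near-identical transcripts or beyond an annotated end.

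All 14 columns of the table were assigned to a library, and libraries sharing an oocyte name were summed. Genes without a count were left out, and the top 60% by total were tested, 9198 of 15432, with edgeR 4.0.16 in R 4.3.3 (TMM, glmQLFit and glmQLFTest, genotype as the term, Benjamini-Hochberg adjustment). Calls needed an adjusted p under 0.05 and a log2 fold change of at least 1 in size. Each adjusted p in the text comes from this test, and the standard error is the log2 fold change divided by the square root of F. The common biological coefficient of variation was 0.609. Transcript lengths came from GENCODE annotation of GRCm38 (98.3% of genes matched). The RefSeq starts of Stag1 and Stag3 lie inside the GENCODE genes, and so do the stretches printed for them. A level of 3 counts was taken as the floor. The named genes were all members, the called genes of each other list (at most 4 a direction), 12 named genes of those lists whatever their value (Meikin had too few counts to be tested), Kdm1a and the 3 genes nearest in pattern to Smc1b, of which 1 is not reported here. Rec8 and Stag3 had too few counts for such a search. Rad21l, Ppp2r1a and Aurkc were named after their counts were seen. The members and lists were chosen with earlier results of these data known. The procedure was tested on simulated counts. Alternatives were DESeq2 1.42.0, library totals, no filter, filterByExpr, an adjusted p alone, every library as its own sample with and without a replicate block, wt/wt oocytes alone, each oocyte left out, pseudocounts of 0.5 and 5 for the ratio, and, added after the data were seen, removal of trends with GC content and length (loess, span 0.5).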

Additional observations from a re-analysis of the deposited data

Results flagged for a closer look

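In D4, Smc1b at 15.2 CPM stood apart from the other mutant oocytes, with a gap to the nearest of them of 0.929 of the group's range. The total counts of C3 stood apart from those of the other control oocytes (0.907 of the range), and the total counts of D4 from those of the other mutant oocytes (0.75 of the range). The critical value of Dixon's test at 95% is 0.71 for 5 oocytes and 0.829 for 4. Of 25 sets tested 3 were past it, where chance gives about 1.25.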

How the results depend on the processing

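Over 723 comparisons of a result with an alternative 653 kept their direction and their side of the threshold, 32 lost the call, 11 gained it, 21 counts moved by over 1.5 times or fell outside their spread and 6 changed sign. Library numbers 2 to 5 occur in control and mutant libraries, and same-numbered libraries did not deviate together (correlations of -0.012, -0.029, 0.094 and -0.128), so the numbers do not pair them. A fit of all 14 libraries with a replicate block, in which a number found in a single genotype says nothing about the difference, called 966 genes (10.5%), with 0 members higher and 1 lower, and 3 genes of the protection and cleavage list. The calls of Smc1a (1.56), Smc1b (fitted value 4.37), Rad21 (-1.05), Stag2 (-1.56) and Pds5b (-1.53) were then lost and that of Stag1 was kept. Wapal, Plk1, Ppp2r5e, Ppp2r1b, Sycp1 and Smc6 also lost their calls there (adjusted p of 0.0925 to 0.213), as Wapal, Plk1 and Smc6 did with GC and length trends removed. Members called higher numbered 1 with DESeq2 and filterByExpr (Smc1a) and with library totals (Smc1b, where Smc1a at 1.28 lost its call). Protection and cleavage genes called numbered 10 with filterByExpr and 11 with wt/wt oocytes alone, and condensin and Smc5/6 genes 5 with DESeq2, 6 with library totals and 5 with libraries not summed. All genes called in these settings, in the order named, were 30.5%, 31.5%, 30.5%, 28.6% and 31.4%. The cause of these changes was not tested. Leaving out each oocyte in turn gave 1607 to 2885 called genes, from 17.6% of those tested without D1 to 31.5% without C3. Members called were then 1 to 2 higher and 4 lower. Of the lists, 2 to 4 loading, 5 to 11 protection, 4 to 5 meiotic axis and 2 to 4 condensin genes were called. The 11 protection genes were found without C3. The log2 fold changes then ranged from 1.39 to 1.97 for Smc1a, -0.61 to -0.27 for Smc3, -1.33 to -1.06 for Rad21, -2.38 to -2.06 for Stag1, -2.19 to -1.78 for Stag2 and -2.19 to -1.77 for Pds5b. The fitted value of Smc1b ran from 5.06 to 6.5, which depends on the prior count, since controls hold 1 count with C3 and 0 without it, and is no fold or bound. The difference in the Stag1 to Stag2 ratio ran from -0.56 to 0.04, its sign changing without C3, which is the same as wt/wt oocytes alone. Sgol2 ranged from -0.79 to 0.04, changing sign in the same setting, and Nipbl ranged from -0.22 without D4 to 0.44, and was -0.15 with library totals. Smc1b has no value without D4, with DESeq2 or with filterByExpr, where it was not tested or had no adjusted p. Depth limits what can be said of Rec8, Stag3, Pds5a and Smc1b, which had 0 or 1 count in most oocytes. At totals of 6928548 and 6926076, C3 and D4 had 1 and 100 Smc1b counts.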
